A study of Mus musculus with 4 samples.

Results

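The 10 genes described here are the cyclins, kinases and kinase inhibitors that act at the G1 phase of the cell cycle, namely *Ccnd1*, *Ccnd2*, *Ccnd3*, *Ccne1*, *Ccne2*, *Cdk4*, *Cdk6*, *Cdkn1a*, *Cdkn1b* and *Cdkn1c*. They were chosen by name, not by their values, and all 10 are among the 32286 features of the count matrices. Their transcripts were followed in spatial transcriptomics of mouse dorsal skin, in which RNA was captured on a grid of barcoded spots and counted as unique molecular identifiers (UMIs). The skin came from 3 *Krox20-CreERT; R26-tdTomato* mice taken at P38 after induction with 4-hydroxytamoxifen at P2. In this line *CreERT* is knocked into the *Krox20* locus and *tdTomato* is a Cre reporter at *Rosa26*. The 4 libraries, called slices, each held a section from each of the same 3 mice. Every spot shares this genotype and induction, and the design holds no control group. The comparisons below are therefore between skin regions within a slice, and the slices are technical replicates, so that all p-values and SDs measure only the spread between slices and not that between mice.

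In the textbook account, D-type cyclins bind the kinases CDK4 and CDK6 and begin the phosphorylation of the retinoblastoma protein, which releases E2F factors. The E-type cyclins, which are E2F targets, then drive entry into S phase with CDK2. The inhibitors of the Cip/Kip family, p21 (*Cdkn1a*), p27 (*Cdkn1b*) and p57 (*Cdkn1c*), bind cyclin and kinase complexes and are known for their part in cell cycle exit during differentiation. In the growing HF, dividing matrix cells at the base give rise to the hair shaft and the inner root sheath, while the outer root sheath, the upper HF and the interfollicular epidermis (IFE) hold their own dividing cells.

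The slices held 1462 to 1752 spots each and 19393026 to 26910422 UMIs, with medians of 11662 to 14627 UMIs per spot. Of 6420 spots, 6411 had at least 250 genes and were kept. Spots were set to 11 regions by lists of marker genes that contain none of the 10 genes, and 651 spots that reached no list's minimum score were left unassigned. The 8 regions described were matrix (590 spots), early shaft (563), late shaft (681), inner root sheath (511), outer root sheath (518), upper HF (447), epidermis (530) and muscle (817). The matrix list consists of mitotic and S phase genes such as *Mki67* and *Top2a*, so that low levels of cell cycle genes elsewhere are partly fixed by how the matrix was chosen. Spots set by the outer root sheath list had none of its genes among their 10 leading genes, and its summed level was 3371 CPM there and 3276 CPM in upper HF spots, so that they are called by their list and not taken as pure outer root sheath. A spot is a small area that can hold several cell types. The inner root sheath keratin list, for example, summed to 75880 CPM in inner root sheath spots, to 59350 CPM in early shaft spots, to 54420 CPM in late shaft spots, to 21430 CPM in matrix spots and to 15800 CPM in epidermis spots. Early and late shaft spots thus also held inner root sheath transcripts.

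All 10 genes were detected in every slice. Over all spots their totals ran from 577 UMIs for *Ccne2* and 748 for *Ccne1* to 17727 for *Cdkn1a* and 22301 for *Ccnd2*. Of the other inhibitors, *Cdkn1b* had 3635 UMIs and *Cdkn1c* 1376. *Cdk4* had 14945 UMIs, *Ccnd1* 9129, *Ccnd3* 3707 and *Cdk6* 2407. UMIs come from transcript 3′ ends and were not divided by length, so values are read across regions for each gene and not between genes. Levels are UMI counts scaled to library size (CPM) with the trimmed mean of M-values (TMM), given as mean ± SD over 4 slices. Because each value is a sum over an area, fewer cells of a type and less RNA per cell cannot be told apart.

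On the mouse genome build GRCm38, by the GENCODE M21 annotation, the inhibitor genes lie at chr17:29090976-29100727 on the plus strand (*Cdkn1a*), chr6:134920401-134925513 on the plus strand (*Cdkn1b*) and chr7:143458339-143461050 on the minus strand (*Cdkn1c*). The D-type cyclin genes lie at chr7:144929931-144939925 on the minus strand (*Ccnd1*), chr6:127125162-127152193 on the minus strand (*Ccnd2*) and chr17:47505051-47599691 on the plus strand (*Ccnd3*). The kinase genes lie at chr10:127063534-127067920 (*Cdk4*) and chr5:3341485-3531008 (*Cdk6*), both on the plus strand. The E-type cyclin genes lie at chr7:38097984-38107534 on the minus strand (*Ccne1*) and chr4:11191351-11204779 on the plus strand (*Ccne2*). *Ccnd1*, *Ccnd3*, *Ccne2* and *Cdk4* overlap protein-coding genes of the other strand (*LTO1*, *Bysl*, *Ints8* and *Tspan31*), and no member overlaps a gene of its own strand.

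Promoter sequence from RefSeq on build GRCm38.p6 was at hand for 6 of the 10 genes, *Cdk4*, *Cdk6*, *Ccne1*, *Ccnd3*, *Cdkn1a* and *Cdkn1b*, in 8 windows. Sequence is shown for *Cdk4*, which was lower than the matrix in all 7 other regions, and for *Cdkn1a*, which was higher. These genes and the motif marked in each were picked by hand. *Ccne1*, also lower in all 7, has a window that is not shown. Each window is 250 bases ending at the transcription start, at chr10:127063285-127063534 for *Cdk4* and chr17:29090729-29090978 for *Cdkn1a*, both on the plus strand. Capitals mark CACGTG, the E-box bound by MYC and related factors, in *Cdk4*, and a pair of CATG with 6 bases between them, a core of the p53 response element, in *Cdkn1a*.
Cdk4: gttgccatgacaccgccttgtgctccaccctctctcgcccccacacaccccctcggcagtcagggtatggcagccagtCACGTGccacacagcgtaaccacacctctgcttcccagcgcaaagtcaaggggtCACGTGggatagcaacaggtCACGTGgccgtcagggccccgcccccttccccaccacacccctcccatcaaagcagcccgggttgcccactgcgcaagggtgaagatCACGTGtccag
Cdkn1a: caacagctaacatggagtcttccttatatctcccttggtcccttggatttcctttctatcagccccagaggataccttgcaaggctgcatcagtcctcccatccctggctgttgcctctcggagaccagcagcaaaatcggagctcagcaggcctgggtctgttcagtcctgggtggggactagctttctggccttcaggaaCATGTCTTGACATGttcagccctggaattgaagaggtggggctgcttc
Both motifs read the same on either strand, and no match overlapped another. CACGTG occurs 4 times in the *Cdk4* window, with first bases at −172, −118, −98 and −11 from the start. It is in 6.02% of 32851 promoter windows of the same length, and 7 of them (0.0213%) hold at least 4 copies. Of the other member windows, that of *Cdk6* held 1 copy. The spaced CATG pair is in this *Cdkn1a* window at −48 and in 161 (0.49%) of all windows. The window of the other *Cdkn1a* start, not shown because it lies over annotated exons, held no copy. UMIs from 3′ ends do not tell which start was used. GGGCGG and CCAAT were also searched on both strands and are common, in 32.7% and 33.8% of all windows. These matches describe the letters and say nothing of binding in this tissue.

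The inhibitors differed in where in the skin they were high. *Cdkn1a* was highest in early shaft and inner root sheath spots, *Cdkn1b* in spots of the outer root sheath list and the upper HF, and *Cdkn1c* in muscle spots. Only *Cdkn1a* passed the test as higher than the matrix in all 7 regions, and its call in the upper HF rested on little.

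*Cdkn1a* encodes p21, the inhibitor that is a classical p53 target. In matrix spots it was measured at 128.9, 101.8, 112.1 and 117.9 CPM in slices 1 to 4 (115.2 ± 11.3). In early shaft spots the values were 316.9, 304.6, 305.8 and 418.0 CPM (336.3 ± 54.8), and in inner root sheath spots 338.6, 269.8, 285.0 and 266.9 CPM (290.1 ± 33.3). Every slice of both regions lay above every slice of the matrix, and slice 4 stood above the other slices in the early shaft. The log2 fold change against the matrix was 1.53 in the early shaft (SE 0.104, edgeR adjusted p = 2.02e-18) and 1.33 in the inner root sheath (SE 0.103, adjusted p = 5.33e-16). Without 1 slice in turn the early shaft value ran from 1.39 to 1.65.

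Outside these regions *Cdkn1a* was lower. Epidermis spots held 227.7, 188.5, 211.8 and 244.2 CPM (218.0 ± 23.7), with a log2 fold change of 0.92 against the matrix (SE 0.106, adjusted p = 9.74e-11). The mean levels in spots of the outer root sheath list (187.4 ± 21.2 CPM), late shaft (186.1 ± 18.4) and muscle (185.3 ± 12.4) lay within their spread of each other, with log2 fold changes of 0.70, 0.69 and 0.68. In order of level, early shaft and inner root sheath did not differ beyond their spread, and the inner root sheath stood above the epidermis. The epidermis and spots of the outer root sheath list, next to it in the order, did not differ beyond theirs. Upper HF spots were at 142.9, 113.3, 153.2 and 140.3 CPM (137.4 ± 17.1), and their log2 fold change of 0.25 (adjusted p = 0.0431) lost the call without slice 2 (0.27, adjusted p = 0.0563), slice 3 (0.19, adjusted p = 0.253) or slice 4 (0.23, adjusted p = 0.099).

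The choice of matrix spots bears on these values. When the matrix was set by transcription factors of matrix cells such as *Lef1* and *Msx2*, 637 spots were taken, of which 258 were also matrix spots by the proliferation list and 72 had been inner root sheath spots. *Cdkn1a* was then still higher in the early shaft (0.82) and the inner root sheath (0.69), and by less in the epidermis (0.24). It was no longer called in the late shaft (0.01, adjusted p = 0.928), spots of the outer root sheath list (0.03, adjusted p = 0.841) and muscle (−0.03, adjusted p = 0.843), and was lower in the upper HF (−0.42, adjusted p = 0.00085). The dermis list summed to 26890 CPM in epidermis spots, 17570 in upper HF spots and 2544 in matrix spots, and the immune list to 1670, 1034 and 125.4 CPM, and their part in the results for these regions was not tested.

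**Figure D1:**
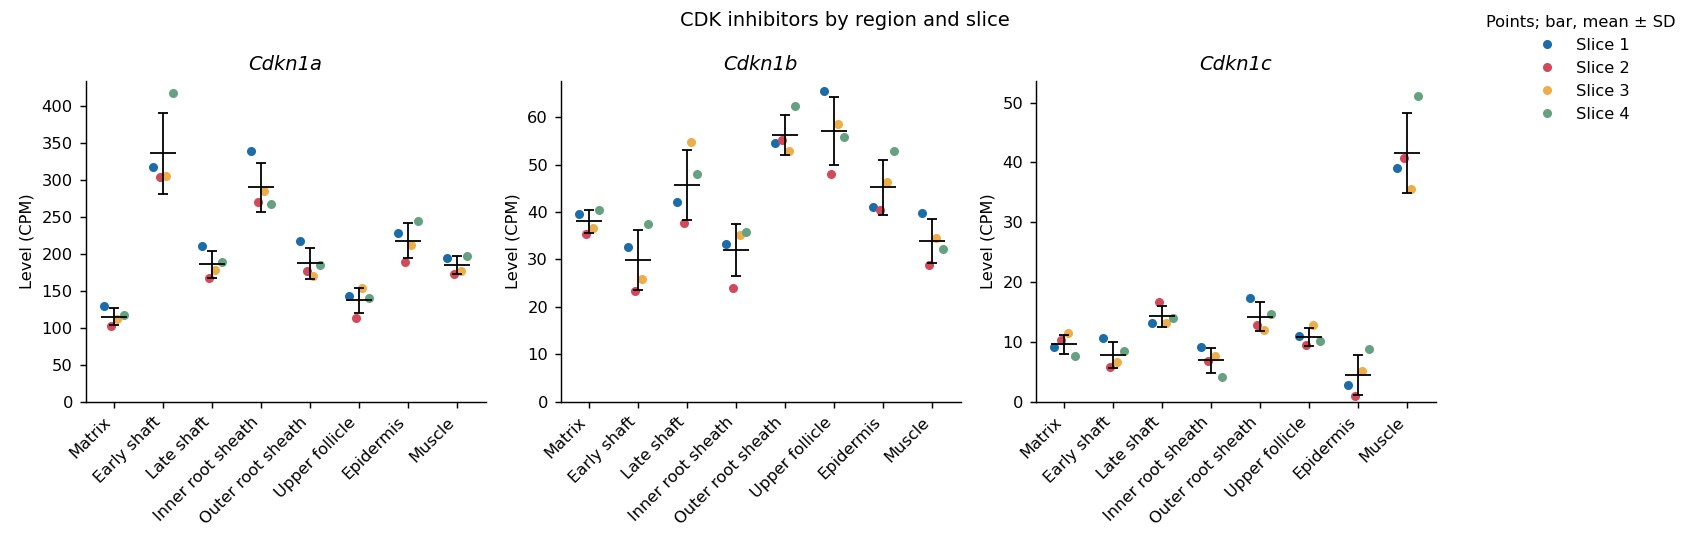
Levels of *Cdkn1a*, *Cdkn1b* and *Cdkn1c* (TMM-scaled CPM, vertical axis) in the 8 regions, with a coloured point for each of the 4 slices and a black bar for the mean and SD. *Cdkn1a* is highest in early shaft spots (336.3 CPM) and inner root sheath spots (290.1 CPM), and *Cdkn1c* is highest in muscle spots (41.6 CPM).

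*Cdkn1b* encodes p27, the inhibitor associated with quiescent cells. In matrix spots it was at 39.7, 35.4, 36.7 and 40.4 CPM (38.03 ± 2.4). Spots of the outer root sheath list held 54.7, 55.2, 52.9 and 62.3 CPM (56.3 ± 4.2) and upper HF spots 65.5, 48.1, 58.5 and 55.9 CPM (57.0 ± 7.2). In both, every slice lay above every matrix slice. The log2 fold changes were 0.57 (SE 0.130, adjusted p = 0.000154) and 0.59 (SE 0.142, adjusted p = 0.000292). Upper HF and outer root sheath list spots did not differ beyond their spread, and both stood above the late shaft (45.7 ± 7.4 CPM) and the epidermis (45.2 ± 5.7 CPM). The dermis list summed to 11100 CPM in spots of the outer root sheath list and to 17570 CPM in upper HF spots, against 2544 CPM in the matrix, and the immune list to 468 and 1034 CPM against 125.4 CPM. Their part in the *Cdkn1b* level was not tested.

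In the lineages where *Cdkn1a* was highest, *Cdkn1b* did not exceed its matrix level. Early shaft spots held 32.6, 23.4, 26.0 and 37.5 CPM (29.9 ± 6.4) and the log2 fold change was −0.37 (adjusted p = 0.0269), a call that was lost without slice 1 (−0.41, adjusted p = 0.0506) or slice 3 (−0.32, adjusted p = 0.105). Inner root sheath spots were at 32.1 ± 5.5 CPM (−0.23, adjusted p = 0.15) and muscle spots at 33.9 ± 4.6 CPM (−0.17, adjusted p = 0.269). Neither passed the test. The late shaft difference of 0.26 was not called (adjusted p = 0.085) but was called with the slice as a replicate block (0.26, adjusted p = 0.0341) and without slice 1 (0.34, adjusted p = 0.0485).

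*Cdkn1c* encodes p57, which is imprinted and is expressed in mesenchyme. It was sparse, with 141 UMIs in matrix spots, 55 in inner root sheath spots and 21 in epidermis spots. Matrix spots held 9.13, 10.2, 11.4 and 7.57 CPM (9.59 ± 1.64). Muscle spots, set by skeletal muscle genes, held 39.0, 40.7, 35.5 and 51.1 CPM (41.6 ± 6.7), and no slice overlapped any other of the 8 regions. The log2 fold change was 2.08 (SE 0.154, adjusted p = 8.88e-17). Adipose and dermis spots followed at 20.4 ± 3.5 and 20.3 ± 4.3 CPM. The adipose list summed to 2495 CPM in muscle spots and 3264 in adipose spots, and the endothelium list to 166.2 CPM in muscle, 216.7 in dermis and 75.2 in matrix spots. Their part in the *Cdkn1c* level was not tested.

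Within the epithelium the lowest mean of *Cdkn1c* was in the epidermis, which did not differ beyond its spread from the inner root sheath next to it in the order. It was at 2.82, 1.01, 5.14 and 8.81 CPM (4.45 ± 3.37) there, and its log2 fold change was −1.15 (SE 0.308, adjusted p = 0.001). The epidermis overlapped the matrix only through slice 4, and without 1 slice in turn the value ran from −1.78 to −0.90. Against the matrix set by transcription factors it was not called (−0.45, adjusted p = 0.224). Late shaft spots (14.3 ± 1.7 CPM, 0.55, adjusted p = 0.0148) and spots of the outer root sheath list (14.2 ± 2.4 CPM, 0.53, adjusted p = 0.0236) were above the matrix. The late shaft call was lost without slice 2 (0.47, adjusted p = 0.0985) or slice 4 (0.46, adjusted p = 0.0504), and the outer root sheath call without slice 1 (0.41, adjusted p = 0.125) or slice 4 (0.43, adjusted p = 0.0941). Inner root sheath spots were at 6.93 ± 2.10 CPM (−0.54, adjusted p = 0.0472), and this call was lost without slice 2 (−0.55, adjusted p = 0.102), slice 3 (−0.51, adjusted p = 0.16) or slice 4 (−0.43, adjusted p = 0.144). Early shaft (7.86 ± 2.14 CPM) and upper HF spots (10.9 ± 1.5 CPM) were not called, though the early shaft was with list scores standardised within each slice (−0.57, adjusted p = 0.0346).

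The share that each inhibitor took of the UMIs of all 3 needs no scaling between regions. The 3 shares are bound to each other, so that a rise of 1 inhibitor lowers the shares of the others. They are compared across regions and do not rank the genes. The *Cdkn1a* share ran from 66.9 ± 1.5% in the upper HF and 70.7 ± 1.5% in the matrix to 88.1 ± 1.4% in the inner root sheath and 89.9 ± 1.4% in the early shaft. *Cdkn1b* took 27.8 ± 1.6% in the upper HF, 23.4 ± 0.9% in the matrix and 7.95 ± 0.85% in the early shaft. In spots of the outer root sheath list, where its level was above the matrix, its share was 21.9 ± 2.1% and did not exceed that of the matrix. *Cdkn1c* took 15.9 ± 1.9% in muscle spots, 5.94 ± 1.29% in the matrix and 1.58 ± 1.07% in the epidermis.

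**Figure D2:**
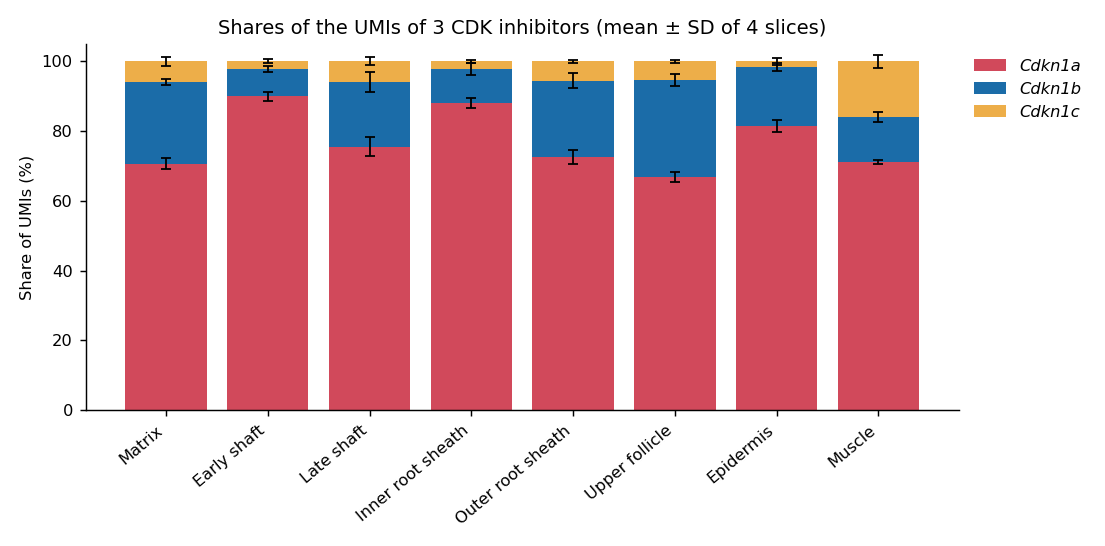
Share of the summed UMIs of *Cdkn1a*, *Cdkn1b* and *Cdkn1c* taken by each (percent, stacked bars with the mean and SD of 4 slices) in the 8 regions. *Cdkn1a* takes 89.9% in early shaft spots and 66.9% in upper HF spots, and *Cdkn1c* takes 15.9% in muscle spots.

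The same contrast appeared in the share of spots with at least 1 UMI, once each spot was thinned to 5500 UMIs. *Cdkn1a* was then seen in 44.3 ± 4.1% of matrix spots, in 76.9 ± 12.7% of early shaft spots and in 76.9 ± 4.7% of inner root sheath spots, against 87.0%, 93.3% and 94.5% with all UMIs. The unthinned matrix share reflects a median of 23301.5 UMIs per spot there, against 14754 in the early shaft and 15728 in the inner root sheath. *Cdkn1c* was seen in 19.2 ± 1.6% of thinned muscle spots and 2.20% of thinned epidermis spots, against 40.3% and 4.18% with all UMIs.

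The D-type cyclins, the partners of CDK4 and CDK6, did not move together. *Ccnd2* was highest in the matrix, *Ccnd1* in the late shaft, and *Ccnd3* differed little among regions.

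*Ccnd2* was at 370.3, 396.8, 408.7 and 379.9 CPM in matrix spots (388.9 ± 17.1). In inner root sheath spots it was at 119.0, 136.2, 115.9 and 163.6 CPM (133.7 ± 21.9), far below the matrix in each slice, with a log2 fold change of −1.53 (SE 0.0949, adjusted p = 1.4e-19). Early shaft spots were at 164.6 ± 6.3 CPM (−1.24, adjusted p = 1.81e-16). The other 5 regions lay between 237.9 and 249.4 CPM, did not differ beyond their spread from their neighbours in the order, and were lower than the matrix by 0.64 to 0.71 on the log2 scale.

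Against the matrix, *Ccnd1* ran the other way in the late shaft and in spots of the outer root sheath list. In the matrix it was at 69.6, 88.8, 81.8 and 86.2 CPM (81.6 ± 8.5), and in the late shaft at 171.1, 220.2, 204.6 and 194.5 CPM (197.6 ± 20.6), above every slice of every other of the 8 regions. The log2 fold change of the late shaft was 1.28 (SE 0.106, adjusted p = 2.31e-15). Spots of the outer root sheath list followed at 111.9, 141.7, 154.0 and 127.7 CPM (133.8 ± 18.2, 0.72, adjusted p = 9.3e-08). Early shaft (108.9 ± 13.5 CPM, 0.42, adjusted p = 0.00108) and epidermis spots (101.1 ± 9.3 CPM, 0.32, adjusted p = 0.0144) were also above the matrix, but the early shaft call was lost with library sizes alone (0.20, adjusted p = 0.166) and with clusters of spots (0.03, adjusted p = 0.901), and the epidermis call without slice 1 (0.20, adjusted p = 0.192) or slice 3 (0.29, adjusted p = 0.0588). The muscle value of 68.4 ± 6.0 CPM was lower (−0.25, adjusted p = 0.0474), a call lost without slice 2 (−0.20, adjusted p = 0.198), slice 3 (−0.28, adjusted p = 0.073) or slice 4 (−0.29, adjusted p = 0.0659). Inner root sheath (95.4 ± 12.3 CPM, 0.24, adjusted p = 0.0665) and upper HF (94.0 ± 17.8 CPM) were not called, though the inner root sheath was with the slice as a replicate block (0.23, adjusted p = 0.022) and without slice 2 (0.33, adjusted p = 0.0295).

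*Ccnd3* was at 31.1 ± 3.5 CPM in the matrix and at 37.9 to 46.8 CPM in the other 7 regions, whose neighbours in the order did not differ beyond their spread. It was called higher in 6 of them, with log2 fold changes of 0.35 to 0.56, and in the inner root sheath it was not (0.31, adjusted p = 0.0502). The latter was called with the slice as a replicate block (0.29, adjusted p = 0.0328) and without slice 1 (0.40, adjusted p = 0.0192). The early shaft call was lost without slice 2 (0.23, adjusted p = 0.268) or slice 4 (0.28, adjusted p = 0.129). Those of the late shaft (0.26, adjusted p = 0.188) and the upper HF (0.33, adjusted p = 0.118) were lost without slice 2. With spots thinned to 5500 UMIs none of the 6 was called, with log2 fold changes of 0.18 in the early shaft to 0.42 in the late shaft, and *Ccnd3* was then seen in 17.6% of matrix spots and 17.1% of inner root sheath spots.

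*Cdk4*, the kinase partner of the D-type cyclins, was at 334.7, 359.5, 309.6 and 286.9 CPM in the matrix (322.7 ± 31.4). In epidermis spots it was at 94.1, 68.9, 88.4 and 69.6 CPM (80.3 ± 12.9), and its log2 fold change of −1.99 (SE 0.123, adjusted p = 4.38e-20) was the lowest of the 7 for this gene. The matrix stood apart from all other regions in every slice. Muscle spots came next at 169.6 ± 7.6 CPM (−0.93), then inner root sheath spots at 131.1 ± 1.9 CPM (−1.30). Late shaft, early shaft, outer root sheath list and upper HF spots followed, with log2 fold changes of −1.37, −1.45, −1.65 and −1.84.

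*Cdk6*, which shares these partners, had another pattern. It was highest in the epidermis, at 56.9, 36.5, 49.3 and 52.0 CPM (48.7 ± 8.7), against 24.6, 30.1, 32.2 and 28.8 CPM in the matrix (28.9 ± 3.2). No epidermis slice overlapped the matrix, and the log2 fold change was 0.78 (SE 0.158, adjusted p = 2.5e-05). Early shaft (17.1 ± 3.9 CPM, −0.74, adjusted p = 0.000375) and inner root sheath spots (17.4 ± 3.2 CPM, −0.74, adjusted p = 0.000323) were lower than the matrix. Against the matrix set by transcription factors they were not called (−0.27 and −0.23, adjusted p = 0.226 and 0.325). The other 4 regions were not called.

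The E-type cyclins, which act with CDK2 at S phase entry, were sparse and highest in the matrix. *Ccne1* was at 20.99, 23.5, 16.5 and 20.9 CPM there (20.5 ± 2.9), at 13.4, 9.12, 8.51 and 9.21 CPM in muscle spots (10.1 ± 2.2) and at means of 3.65 to 5.85 CPM in the other 6 regions. *Ccne2* was at 15.7, 14.4, 18.1 and 15.9 CPM in the matrix (16.0 ± 1.5), at 7.52 ± 0.58 CPM in muscle and at 2.87 to 4.38 CPM elsewhere. For both genes the slices of the matrix lay above all others. Both were called lower in all 7 regions, by 1.83 to 2.52 on the log2 scale for *Ccne1* and by 1.83 to 2.37 for *Ccne2* outside muscle, and by 1.03 and 1.09 in muscle. Muscle spots also held 640.0 ± 19.8 CPM of the matrix list, all 12 genes detected, against 1697 ± 74.1 CPM in the matrix and 210.2 to 301.6 CPM in those other 6 regions. Adipose spots held 531.9 CPM of it and dermis spots 326.5 CPM. Of 817 muscle spots, 492 touched a matrix spot. Against the matrix set by transcription factors the muscle differences were not called (−0.29, adjusted p = 0.242, and −0.15, adjusted p = 0.581).

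**Figure D3:**
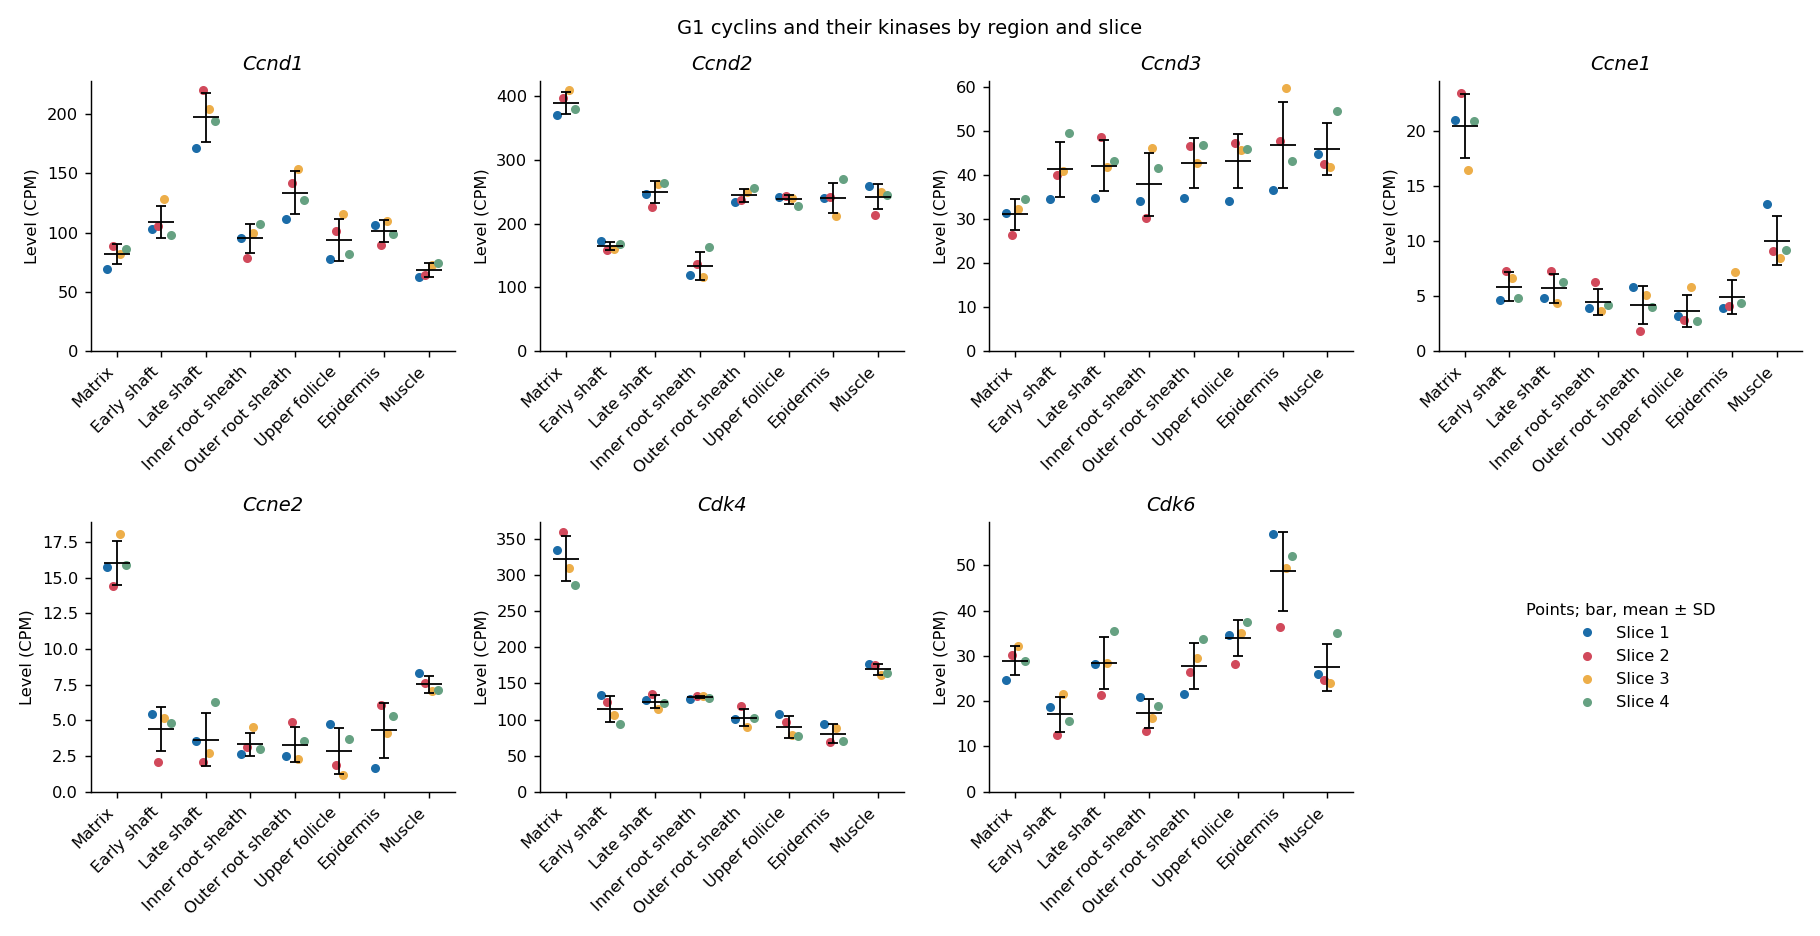
Levels of the cyclins and of *Cdk4* and *Cdk6* (TMM-scaled CPM, vertical axes) in the 8 regions, with a point for each of the 4 slices and the mean and SD over slices. *Ccnd2*, *Cdk4*, *Ccne1* and *Ccne2* are highest in the matrix, *Ccnd1* in the late shaft (197.6 CPM) and *Cdk6* in the epidermis (48.7 CPM).

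Counted over the 10 genes, 9 were called against the matrix in the early shaft, where 57.5% of the 11980 genes tested were called. The counts were 8 in the late shaft (62.3% of all genes), 7 in the inner root sheath (53.1%), 9 in spots of the outer root sheath list (65.6%), 7 in the upper HF (65.8%), 9 in the epidermis (66.9%) and 8 in muscle (55%). Most genes differed between regions of this tissue, so that a call alone sets no member apart, and these 7 comparisons share the matrix sums. The members differed in direction, where 3008 to 4100 of all 11980 genes were higher in a comparison and 3154 to 3918 lower. The share of all genes with the same direction in all 7 is not given here, and the matrix was chosen by mitotic and S phase genes. *Ccnd2*, *Cdk4*, *Ccne1* and *Ccne2* were lower than the matrix in all 7, *Cdkn1a* was higher in all 7, and *Cdkn1b*, *Cdkn1c*, *Ccnd1* and *Cdk6* were called in both directions depending on the region. The only lower calls of *Cdkn1b* (early shaft) and *Ccnd1* (muscle), and the *Cdkn1a* call in the upper HF, were lost without some single slices.

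**Figure D4:**
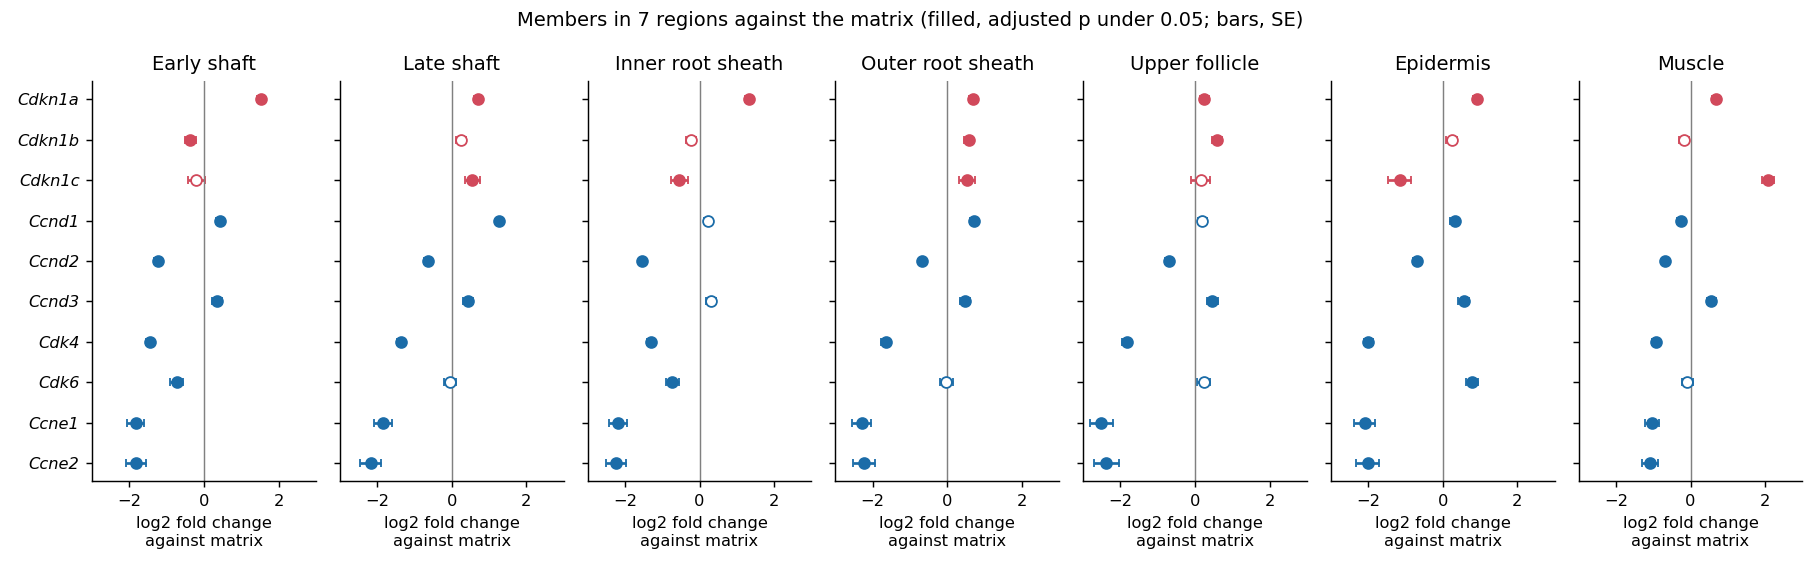
Log2 fold changes against matrix spots (horizontal axes, points with SE, filled where the adjusted p is under 0.05) of the 10 genes in the 7 other regions, with inhibitors in red and the other genes in blue. *Ccnd2*, *Cdk4*, *Ccne1* and *Ccne2* lie below 0 in every region, *Cdkn1a* lies above 0 in every region, and *Cdkn1c* lies farthest above 0 in muscle (2.08).

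Along the shaft lineage, 6 of the 10 genes were called between late and early shaft, where 28.1% of all genes were. *Cdkn1a* was lower in the late shaft (−0.84, SE 0.104, adjusted p = 4.11e-09), with slices at 210.2, 167.4, 177.7 and 188.9 CPM, all under those of the early shaft. The other inhibitors were higher, *Cdkn1b* by 0.62 (adjusted p = 0.00114) and *Cdkn1c* by 0.76 (adjusted p = 0.0103). The *Cdkn1b* call was lost without slice 3 (0.47, adjusted p = 0.0572) and the *Cdkn1c* call without slice 2 (0.55, adjusted p = 0.167) or slice 3 (0.72, adjusted p = 0.0601). *Ccnd1* (0.86, adjusted p = 9.46e-09), *Ccnd2* (0.60, adjusted p = 1.99e-06) and *Cdk6* (0.70, adjusted p = 0.00479) were also higher in the late shaft. *Ccnd3*, *Cdk4*, *Ccne1* and *Ccne2* were not called. Early shaft spots were uneven over the slices, with 243, 147, 104 and 69 spots in slices 1 to 4.

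Between epidermis and upper HF, which meet at the skin surface, 3 of the 10 genes were called, where 15.7% of all genes were. *Cdkn1a* was higher in the epidermis by 0.67 (adjusted p = 6.88e-06), with every epidermis slice above every upper HF slice. *Cdkn1c* was lower by 1.30 on the log2 scale (adjusted p = 0.00655), on 21 UMIs in the epidermis. That call was lost without slice 1 (−1.04, adjusted p = 0.103) or slice 2 (−1.13, adjusted p = 0.061). It was also lost with a higher minimum score (−0.91, adjusted p = 0.144), with thinned spots (−1.39, adjusted p = 0.0902) and with clusters of spots, where the difference was small (−0.31, adjusted p = 0.743). *Cdk6* was higher by 0.55 (adjusted p = 0.0347), a call lost without slice 1 (0.45, adjusted p = 0.231), slice 2 (0.55, adjusted p = 0.0551) or slice 3 (0.57, adjusted p = 0.0901).

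Distance on the spot grid was read as the number of steps from the nearest matrix spot, which uses no count of the 10 genes. *Cdkn1a* was at 119.9 CPM in matrix spots, at 226.3 CPM at 1 step and at 169.3 CPM at 5 steps. *Cdk4* fell with each step, from 336.3 CPM to 175 CPM at 1 step, 129.8 at 2, 116.1 at 3, 101.8 at 4, 86.5 at 5 and 75.6 at 6. *Ccnd2* fell from 404.9 to 205.4 CPM within 1 step and stayed between 205.4 and 238.2 CPM beyond. *Ccnd1* was lowest at 1 step (71.3 CPM) and highest at 3 steps (153.2 CPM), and *Cdkn1b* was lowest at 1 step (30.5 CPM) and highest at 4 (51.7 CPM). *Cdkn1c* was at 17.6 CPM at 1 step, 17.7 at 2, 16.7 at 3 and 17.2 at 4, and was at 5.35 CPM at 6 steps. Muscle spots were 492 of 1513 at 1 step and 21 of 844 at 4 steps, and their part in these levels was not tested. The bins mix regions, and no test was made on them.

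**Figure D5:**
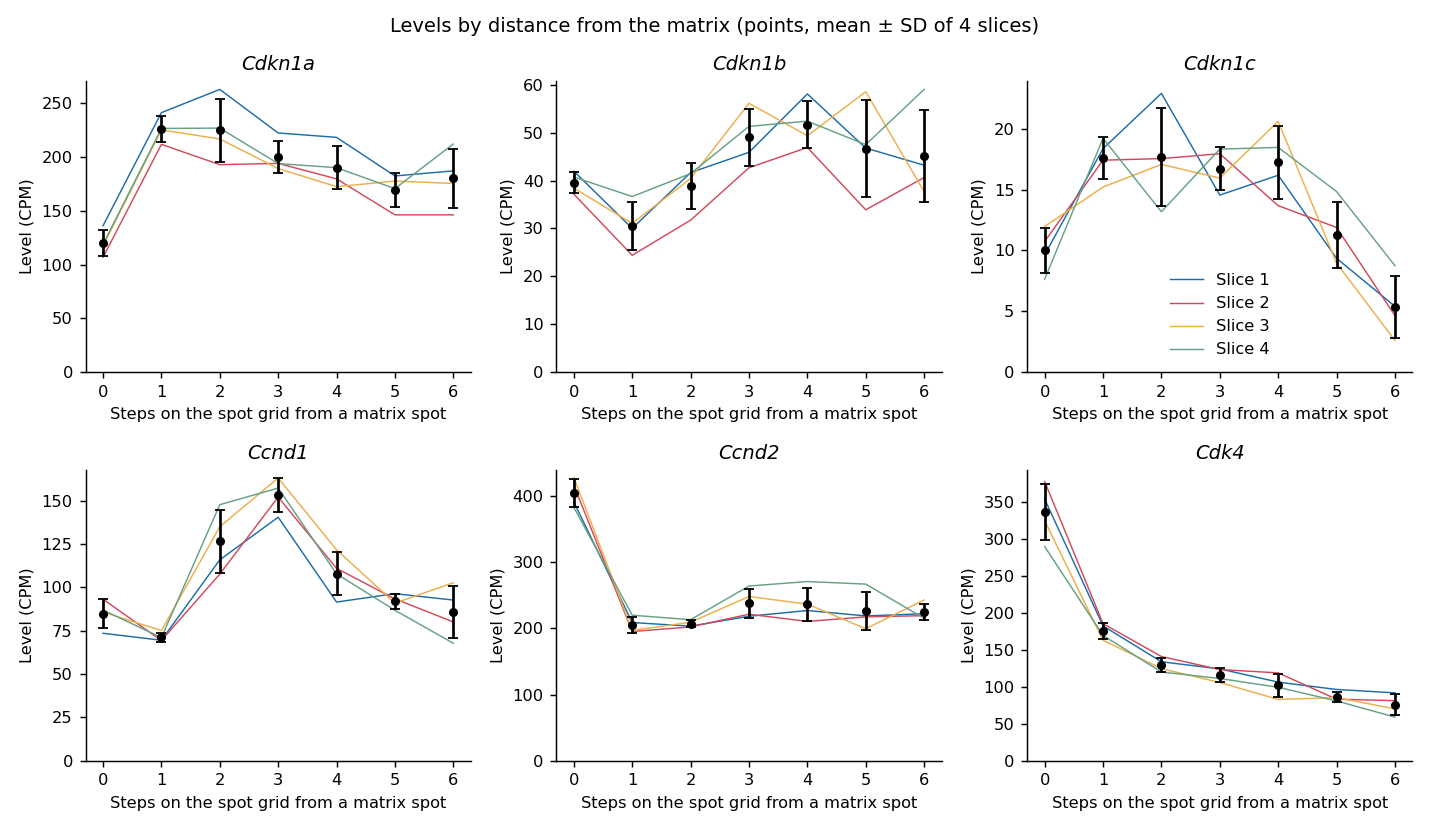
Levels of 6 of the genes (TMM-scaled CPM, vertical axes, points with mean and SD of 4 slices and a line for each slice) by the number of grid steps from the nearest matrix spot (horizontal axis). *Cdk4* falls with each step from 336.3 to 75.6 CPM, *Cdkn1a* rises from 119.9 to 226.3 CPM at 1 step, and *Ccnd1* peaks at 3 steps (153.2 CPM).

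To compare members within a lineage, the spots of a region were split at the median level of the matrix list, separately in each slice. *Ccne1* and *Ccne2* had too few counts to be tested, which left 8 genes in 6 regions. None of the 48 differences between spots below and above the median was called by edgeR or by DESeq2. These models left out the slice, although it pairs the sums, and some differences were called with it as a replicate block (given below). By edgeR, 8 of the 48 had an unadjusted p under 0.05. The share of all genes at that threshold is not given here, so this count sets no member apart. Few genes of any kind were called at the adjusted threshold, 0.597% in the early shaft, 0.237% in the late shaft, 0.278% in the inner root sheath, 0.227% in spots of the outer root sheath list, and 0.113% in both the upper HF and the epidermis. Genes of the matrix list, on which the spots were split, were among these calls by construction. They made up 11 of 58 calls in the early shaft, 12 of 23 in the late shaft, 11 of 27 in the inner root sheath and 11 of 22 in spots of the outer root sheath list. In the upper HF and the epidermis they were 9 and 8 of 11 calls.

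*Ccnd2* had the smallest adjusted p of the 48. In early shaft spots below the median it was at 147.5, 122.1, 116.9 and 129.4 CPM, and above the median at 178.9, 175.1, 180.4 and 190.4 CPM, without overlap (−0.47, adjusted p = 0.0661). With the slice as a replicate block this difference was called (−0.45, adjusted p = 0.0111), as were those of *Ccnd1* in the early shaft (−0.44, adjusted p = 0.0415) and in spots of the outer root sheath list (−0.50, adjusted p = 0.0252). The last was also called without slice 1 (−0.58, adjusted p = 0.0378). In the inner root sheath *Ccnd2* was lower below the median in each slice, with means of 109.2 ± 27.6 and 148.2 ± 18.4 CPM, and was not called (−0.42, adjusted p = 0.183).

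*Cdkn1a* was higher below the median in each slice in the early shaft (348.3 ± 44.3 against 293.4 ± 66.5 CPM) and in the inner root sheath (306.8 ± 47.7 against 253.6 ± 21.8 CPM), and was called in neither (0.27 in both, adjusted p = 0.362 and 0.573). In the other 4 regions its difference ran from −0.04 to 0.20 and was not called. Spots below the median in the early shaft held 127.2 CPM of the matrix list and 26370 CPM of their own list, against 429.6 and 21120 CPM above it, and the muscle list was at 497.5 against 1147 CPM. The part of these differences in content was not tested. Between lineages, the low minus high differences were compared in 24 tests on 3 pairs of regions. No member was called by edgeR, where 0%, 0% and 0.0412% of all genes were. Of the 24, 2 had an unadjusted p under 0.05, and here too the share of all genes at that threshold is not given. The comparisons between lineages were not run with DESeq2.

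Around these members in the pathway, replication licensing genes such as the *Mcm* helicase subunits were lower than the matrix throughout. All 11 tested of 12 were lower in all 7 regions, with median log2 fold changes of −2.38 in the upper HF to −1.22 in muscle, where medians over all genes ran from −0.06 to 0.01. The matrix was chosen by mitotic and S phase genes. Low levels of cell cycle genes elsewhere, here and among the regulators below, are therefore partly fixed by that choice. Values of these lists against the matrix set by transcription factors are not given here. Most of the Rb and E2F family was lower as well, 6 of 11 in the early shaft, 9 in the late shaft and 7 in the inner root sheath, where 3566, 3789 and 3356 of all 11980 genes were lower. *Rb1* itself was higher in the early shaft (0.39, adjusted p = 0.0367), which makes 7 of 11 called there, against 57.5% of all genes. In the late shaft *Rb1* was lower (−0.50, adjusted p = 0.0144), as in spots of the outer root sheath list (−0.43, adjusted p = 0.0372). It was not called in the inner root sheath, upper HF, epidermis or muscle. It is named after its values were seen. *E2f8*, a repressive E2F, fell by 2.14 and *Rbl1*, a relative of *Rb1*, by 1.84 on the log2 scale in the early shaft.

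Among 11 other regulators of the G1/S transition, 6 (muscle) to 10 (outer root sheath list spots) were lower, where 3154 and 3880 of all 11980 genes were. *Mycn* fell by 1.26 in muscle to 3.90 in the upper HF, and *Skp2*, whose product directs p27 to degradation, was also lower in all 7. The gene called higher in all 7 was *Fbxw7*, whose product targets cyclin E for degradation, and it is named here after its values were seen. Its log2 fold changes ran from 0.67 in the epidermis to 1.95 in the late shaft. Of the INK4 inhibitors, which bind CDK4 and CDK6, *Cdkn2c* and *Cdkn2d* were lower in all 7 regions and *Cdkn2a* had too few counts to be tested. *Cdkn2b* was higher in the early shaft (0.40) and lower in spots of the outer root sheath list (−1.15) and in the upper HF (−0.71).

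The 7 tested genes of a list of p53 and its targets had no common direction. In the early shaft and in the inner root sheath 2 were higher and 3 lower, where 3320 and 3008 of all 11980 genes were higher and 3566 and 3356 lower. *Trp53* was lower in all 7 regions, by 1.38 in the early shaft and 1.46 in the inner root sheath, and *Bax*, a cell death gene, was lower too. *Sesn2*, a stress response gene, was higher in all regions but muscle, by 0.41 in the epidermis to 1.09 in the late shaft. *Ccng1* was higher in muscle (2.04, adjusted p = 1.29e-25), lower in the early shaft (−0.41) and the epidermis (−0.29), and not called in the other regions. *Mdm2*, whose product directs p53 to degradation, was higher in the early shaft (0.30, adjusted p = 0.0476, also named after its values were seen), the inner root sheath (0.41) and the late shaft (0.88).

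Over the 44 sums of 11 regions and 4 slices, the genes whose log2 level was most like that of *Cdkn1a* among 8789 genes were *Tuba4a* (Pearson r = 0.896), *Rab11a* (0.891), *Rps6kb2* (0.89), *Cast* (0.884) and *Trip4* (0.876). For *Cdkn1b* they were *Cbx6* (0.817), *Ptms* (0.776), *Ssbp3* (0.765), *Fzd2* (0.764) and *Zfp36l2* (0.763). For *Cdkn1c* they were *Rgs5*, a pericyte gene (0.811), *Gpx3* (0.794), *Retnla* (0.788), *Chchd10* (0.786) and *Fzd4* (0.785). For *Ccnd1* they were *Epb41l4b* (0.87), *Suco* (0.86), *Prickle2* (0.844), *Bpifc* (0.835) and *Slc22a23* (0.835), and for *Ccnd2* *Anp32a* (0.774), *Matr3* (0.77), *Paics* (0.764), *G3bp2* (0.758) and *Ptma* (0.749). The sums of a slice share a library and those of a region share its spots, so that these values are descriptions.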

How the data were processed

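Spatial libraries (Visium, 10 µm frozen sections) were made from 4 slices. The deposited matrices hold UMI counts per gene and spot, made by the authors with Space Ranger 2.0.1 on mm10, per the submitters' processing notes, and were not normalised. One section with a distorted structure did not enter the authors' own analysis, and its spots could not be told from the others and may be among those used here. Which spots belong to which mouse is not given in the sources used here. Spots with at least 250 genes were kept. For each list, log1p UMIs scaled to spot depth were z-scored, averaged and standardised over all spots, and a spot was set to its highest list if the score was at least 1, a minimum chosen with the data in hand. Of the kept spots, 342 lay within 0.1 of that minimum. Of 102 list genes, 101 were found by symbol. In all, 750 barcodes were in all 4 slices of 2485 different ones, because barcodes mark fixed grid positions.

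Counts were summed per region and slice into 44 sums and fitted with edgeR 4.0.16 (filterByExpr, TMM, glmQLFit, glmQLFTest) in R 4.3.3, with p-values adjusted by Benjamini-Hochberg over all genes tested, 11980 for regions and 9709 for spots split at the median of the matrix list, and a threshold of 0.05. TMM factors ran from 0.794 to 1.13. The 10 genes were named in full. Pathway lists were described by counts, with up to 4 called genes of the largest change in a contrast, and the 5 genes most like a member by Pearson r were named among those with a mean of at least 10 CPM. The members, lists and tests were chosen with earlier results of these data known. Sums from the same slice deviated together (mean r of 0.10 to 0.23 over 8790 genes, against −0.05 between slices), and they come from the same sections, so slice numbers pair the sums. On simulated counts for inner root sheath against matrix (11328 genes), 97.5% of 200 genes changed by 1 on the log2 scale were recovered, with 3.94% false calls. For the split of inner root sheath spots (9178 genes) the values were 94% and 5.53%. The changed genes were drawn only from genes above a minimum mean level, which *Cdkn1c*, *Ccne1* and *Ccne2* did not reach. These shares therefore do not cover the sparse members or differences smaller than 1 on the log2 scale. Alternatives covered DESeq2 1.42.0, scaling, filters, the slice as a block, region rules, 20 clusters of spots, thinning, position strips and leaving out each slice.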

Additional observations from a re-analysis of the deposited data

Results flagged for a closer look

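In 104 sets of 4 slice values, 7 had 1 slice apart from the others by Dixon's test at its 95% limit, where chance gives about 1 in 20. The *Cdkn1a* level in early shaft spots was 418.0 CPM in slice 4 against 304.6 to 316.9 CPM in the other slices. *Ccnd3* in upper HF spots was 33.95 CPM in slice 1 against 45.6 to 47.2. *Ccne1* stood apart in 3 regions, at 13.37 CPM in muscle spots of slice 1 against 8.51 to 9.21, at 7.196 CPM in epidermis spots of slice 3 against 3.95 to 4.41, and at 5.849 CPM in upper HF spots of slice 3 against 2.75 to 3.16. Of the inhibitor shares, that of *Cdkn1c* in the inner root sheath was 1.351% in slice 4 against 2.25 to 2.40%, and that of *Cdkn1b* in the epidermis was 15.15% in slice 1 against 17.3 to 17.6%.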

How the results depend on the processing

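Of 66 called differences between regions, 62 kept their direction and 28 kept direction and call under all 17 alternatives run for them. With the matrix set by transcription factors, values turned for *Cdkn1c* in the early shaft (0.534) and inner root sheath (0.432), *Cdkn1b* in the inner root sheath (0.011) and muscle (0.033), *Cdkn1a* in the upper HF (−0.423) and muscle (−0.027), and *Ccnd1* in muscle (0.04), and 4 genes were called in muscle. That setting by construction changes which spots stand for the matrix. *Cdkn1c* in the upper HF turned to −0.24 with a higher minimum score, −0.921 with clusters and −0.111 with thinned spots. *Cdkn1b* in the late shaft turned to −0.023 with library size alone, which moved the median of all genes there to −0.309 (log2). *Cdkn1a* below against above the median in outer root sheath list spots turned to 0.09 with thinned spots, and *Ccnd3* in the inner root sheath against the matrix to −0.005. The causes were not tested.

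The counts of members called under other settings are given without the share of all genes called, so they are not read as results about the members. With spots thinned to 5500 UMIs, fewer members were called, 5 in the early shaft, 4 in the late shaft, 5 in outer root sheath list spots, 4 in the upper HF, 5 in the epidermis, 4 in muscle and 3 between late and early shaft. Against a fold of 1.5 (glmTreat) the counts were 5, 4, 3, 3, 5, 4 and 2, and 0 between epidermis and upper HF, where the ordinary edgeR test called 3. That last count was 1 with a higher minimum score, and 1 to 3 when leaving out a slice (1 without slice 1 or slice 2). For the splits at the median, where none was called, library size alone called 1 member in the early shaft, a split into the lowest and highest of 3 parts called 2 in the early shaft and 1 in the inner root sheath, and leaving out a slice called 0 to 1 in outer root sheath list spots (1 without slice 1). With the slice as a replicate block, 2 were called in the early shaft and 1 in outer root sheath list spots. Against the matrix the block added *Cdkn1b* in the late shaft (0.256, adjusted p = 0.0341) and *Ccnd1* (0.232, adjusted p = 0.022) and *Ccnd3* (0.287, adjusted p = 0.0328) in the inner root sheath, and it changed no other call of a member between regions. *Cdkn1c*, with 1376 UMIs in all, and the E-type cyclins are the genes whose depth limits what could be seen. Scores within each slice were an alternative chosen after seeing the data.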
